A study of Mus musculus with 4 samples.

Results

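The genes described here are the transient receptor potential (TRP) channels and their closest relatives, followed in cultured mouse melanocytes with and without pigment. They were chosen by name: every gene whose symbol begins with Trpa, Trpc, Trpm or Trpv and a digit, the mucolipins Mcoln1 to Mcoln3, and the polycystin genes Pkd1 and Pkd2, each read from probe sets that carry a single gene symbol. The rule found 24 of the 18193 genes on the array, with 47 probe sets in all. It also takes in Trpc4ap, which encodes a partner protein of the channel TRPC4 and no channel, so that 23 of the 24 are channel or polycystin genes. All 24 symbols matched the RefSeq table of mouse genes through their Entrez number. Pkd2 was not analysed here.

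RNA came from 2 melanocyte lines of mouse skin, and Balb/c is the strain background of both. Cells without pigment carry, on both copies, a mutated base in the tyrosinase gene, whose product begins melanin synthesis. The pigmented line is wild type there, because the mutation had been corrected. Both lines were grown in RPMI medium with serum, 2-mercaptoethanol and the phorbol ester TPA, an activator of protein kinase C that melanocyte cultures are commonly given. Each line was measured on 2 Affymetrix arrays. The labels name no separate cultures or clones, so the p-values below measure the spread between these arrays, which may be technical, and any difference that arose between the lines apart from the corrected mutation cannot be told apart from it.

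TRP channels are cation channels of the cell surface and of internal membranes, and most pass calcium. They are grouped by sequence into canonical (TRPC), melastatin (TRPM), vanilloid (TRPV), ankyrin (TRPA), mucolipin and polycystin channels. Melastatins and mucolipins have a history in pigment cells: TRPM1, or melastatin, was found as a transcript of melanocytes that is lost in aggressive melanoma, and mutations of Mcoln3 cause the varitint-waddler mouse, which has a diluted and mottled coat. Trpm1 is a known target of the melanocyte transcription factor MITF, which binds E-box motifs.

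The promoters of the 2 genes that passed the test, Trpm1 and Mcoln3, are shown because their differences are the main result. They are taken from RefSeq (build GRCm38.p6) and run from 250 bases before to 50 bases after an annotated start. Capitals mark CATGTG or its reverse complement CACATG, and the palindrome CACGTG, the E-box letters searched for on both strands. For Trpm1 the table holds the windows of 2 starts, chr7:64153585-64153884 and chr7:64185209-64185508, both on the plus strand. The Mcoln3 window lies at chr3:146121541-146121840 on the plus strand.
Trpm1, first start: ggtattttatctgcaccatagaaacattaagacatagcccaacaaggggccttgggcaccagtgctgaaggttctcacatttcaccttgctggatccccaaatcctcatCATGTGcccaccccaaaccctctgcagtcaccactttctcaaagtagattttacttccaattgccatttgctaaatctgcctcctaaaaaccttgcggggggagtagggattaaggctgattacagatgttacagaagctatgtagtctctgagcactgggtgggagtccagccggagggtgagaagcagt
Trpm1, second start: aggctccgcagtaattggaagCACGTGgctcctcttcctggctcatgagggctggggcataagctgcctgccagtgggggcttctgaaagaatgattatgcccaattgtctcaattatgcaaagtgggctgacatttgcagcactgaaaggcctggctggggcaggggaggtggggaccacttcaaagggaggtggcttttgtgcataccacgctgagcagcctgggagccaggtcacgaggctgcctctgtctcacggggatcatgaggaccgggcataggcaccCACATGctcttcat
Mcoln3: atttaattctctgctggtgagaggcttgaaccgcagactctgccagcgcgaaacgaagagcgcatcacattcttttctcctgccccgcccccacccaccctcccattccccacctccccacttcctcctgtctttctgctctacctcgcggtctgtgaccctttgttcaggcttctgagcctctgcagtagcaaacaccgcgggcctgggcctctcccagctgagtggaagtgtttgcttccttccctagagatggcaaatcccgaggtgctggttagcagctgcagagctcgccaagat

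The first Trpm1 promoter held CATGTG beginning 141 bases before the start. The second held CACGTG beginning 229 bases before the start and CACATG beginning 36 bases after it. The Mcoln3 promoter held neither motif, which says only that these letters are not in this window. Of 32851 mouse promoters of the same length, 14.2% held CATGTG or its complement, 7.15% held CACGTG and 20.4% held either. Promoters were found for 22 of the 24 genes, 26 promoters in all, of which 8 held either motif. The 7 genes with a match were Mcoln1, Mcoln2, Trpc2, Trpm1, Trpm2, Trpm6 and Trpm7. A match is a description of the sequence and no evidence of binding.

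Trpm1 is also the host of a microRNA gene, Mir211, and the related Mir204 lies within another of the genes, Trpm3. Their 5′ products are shown because they share 1 seed (bases 2 to 8, in capitals), while Trpm1 was called and Trpm3 was dim. Neither microRNA was measured here. The mature sequences are from RefSeq, at chr7:64205831-64205852 and chr19:22750610-22750631, both on the plus strand.
mmu-miR-211-5p: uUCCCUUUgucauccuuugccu
mmu-miR-204-5p: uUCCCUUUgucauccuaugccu

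Signals are linear probe set intensities, which the authors had scaled to a common level per array. With no detection column to go by, a gene was called dim if its mean log2 value fell among the lowest 40% of the probe sets, which corresponds to a signal of 70.7. Of the 24 genes, 14 passed this filter and were tested, and 10 were dim. The filter uses the mean over all 4 arrays, so a gene can pass through the line in which it is high. Each gene was represented by its probe set with the highest mean. Pairs of values below give replicate 1 and then replicate 2 of a line; the numbers only name the arrays. Differences are pigmented minus non-pigmented on the log2(signal + 16) scale, which understates the change of dim genes.

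**Figure D1:**
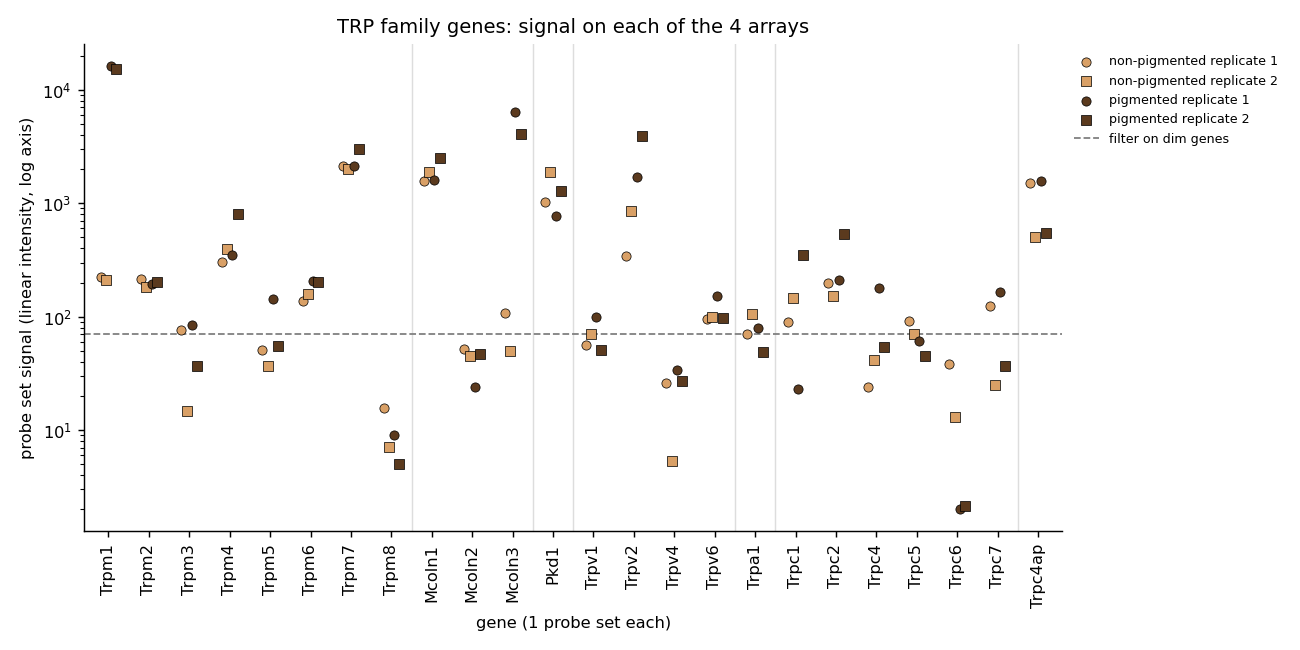
Signal of the chosen probe set of each of the 24 genes (log axis, linear intensity) on each of the 4 arrays, grouped from left to right as TRPM, mucolipin, polycystin, TRPV, TRPA, TRPC and Trpc4ap; the dashed line is the filter at a signal of 70.7. The pigmented arrays stand far above the non-pigmented ones for Trpm1 and Mcoln3 and above them, by less, for Trpv2. Heights of different probe sets cannot be compared with each other.

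In their chosen probe sets Trpm1 and Mcoln3 were higher in the pigmented line, by 67.4-fold and by at least 49.0-fold. With low signals set to the filter value, the other probe sets gave at least 7.25-fold for Mcoln3 and at least 40.5-fold, 84.9-fold and 181-fold for Trpm1. No other gene of the 14 passed the test. Trpv2 had the third largest difference, with a log2 value of 2.21, but did not pass. The remaining 11 genes had differences between -0.47 and 0.90. By limma (adjusted p under 0.05, two-sided), 2 of the 14 tested genes were called higher and 0 were called lower. Of all 12558 genes tested 3.36% were called, 1.33% higher and 2.03% lower. Higher calls made up 167 of 422, and 132 of 455 when arrays were centred on their medians; the calls in the family were Trpm1 and Mcoln3 then too. An unadjusted p under 0.05 was reached by 3 of the 14 genes, against 13.8% of all genes. The median difference of the 14 was 0.28, against 0.07 over all tested genes, and the median size without regard to sign was 0.41, against 0.46. Both pigmented arrays lay above both non-pigmented ones in 6 of the 14 genes, against 24.4% of all tested genes, and below them in 0, against 19.5%. With 2 arrays against 2, an exact permutation test of a single gene cannot give a two-sided p below 0.333.

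**Figure D2:**
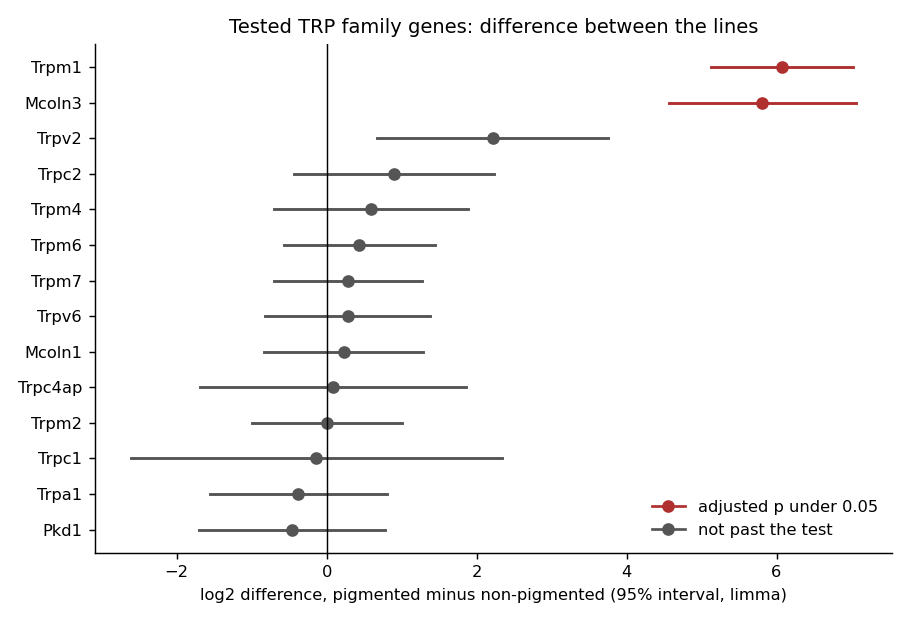
Difference between the lines for the 14 tested genes, with the 95% interval from limma; red marks an adjusted p under 0.05. The intervals of Trpm1 (5.13 to 7.02) and Mcoln3 (4.56 to 7.06) lie far from 0, and that of Trpv2 runs from 0.67 to 3.75.

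Trpm1 encodes a cation channel that depolarises ON bipolar cells of the retina and is otherwise best known from melanocytes. Its chosen probe set, 1418935_at, had signals of 225 and 209 on the non-pigmented arrays and of 16195 and 15187 on the pigmented arrays. The arrays of a line lay close together and the lines did not overlap. On the log2 scale the means were 7.86 ± 0.07 (SD, n = 2) in the non-pigmented and 13.94 ± 0.07 (SD, n = 2) in the pigmented line. The difference was 6.07 ± 0.39 (SE), with an adjusted p of 0.00512 by limma, and it ranked 7 by p among all 12558 genes. It was 6.17 with a pseudocount of 1 and 5.81 with one of 64.

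All 4 probe sets of Trpm1 had the same direction. Both non-pigmented arrays were low and both pigmented arrays high in each. Probe set 1437445_at had signals of 31.9 and 9.77 in the non-pigmented and 14607 and 16912 in the pigmented arrays, at least 181-fold higher. Probe set 1437531_at had 42.4 and 11.3 against 4380 and 12327, at least 84.9-fold higher. For 1440241_at the signals were 16.5 and 47.7 against 3430 and 3559, at least 40.5-fold higher. In these 3 probe sets all non-pigmented signals lay under the filter value, so these bounds set them to that value. The 3 passed the filter only through the pigmented line, and their calls when each probe set was tested on its own are no further support (1.73% of 22341 probe sets were called in that fit). The chosen probe set 1418935_at had signals above 200 in the non-pigmented line.

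Mcoln3 encodes mucolipin 3, a calcium-permeable channel of endosomes and lysosomes. Probe set 1437540_at had signals of 108 and 49.9 on the non-pigmented arrays against 6358 and 4046 on the pigmented arrays. Both pigmented arrays were high, and of the non-pigmented arrays replicate 2 lay under the filter value. Mean log2 values were 6.50 ± 0.65 (SD, n = 2) and 12.31 ± 0.46 (SD, n = 2) in the non-pigmented and pigmented line. This gave a difference of 5.81 ± 0.51 (SE) and an adjusted p of 0.00618 by limma. With pseudocounts of 1 and 64 it was 6.09 and 5.20. The bound of at least 49.0-fold holds for this probe set only and sets non-pigmented replicate 2 to the filter value.

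The other probe set of Mcoln3, 1450148_at, was less even. Its signals were 59.6 and 66.6 in the non-pigmented arrays, but 2056 in pigmented replicate 1 and only 175 in pigmented replicate 2. Both non-pigmented signals lay under the filter value. The direction was the same, with a fitted difference of 2.99, which did not pass when probe sets were tested singly (adjusted p of 0.364 by limma). Pigmented replicate 2 is one of the arrays with a lost 5′ control signal, described below. The part of that loss in the low value was not tested. With the mean of both probe sets in place of the higher one, Mcoln3 still passed, at 4.40 and an adjusted p of 0.0328 by limma.

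**Figure D3:**
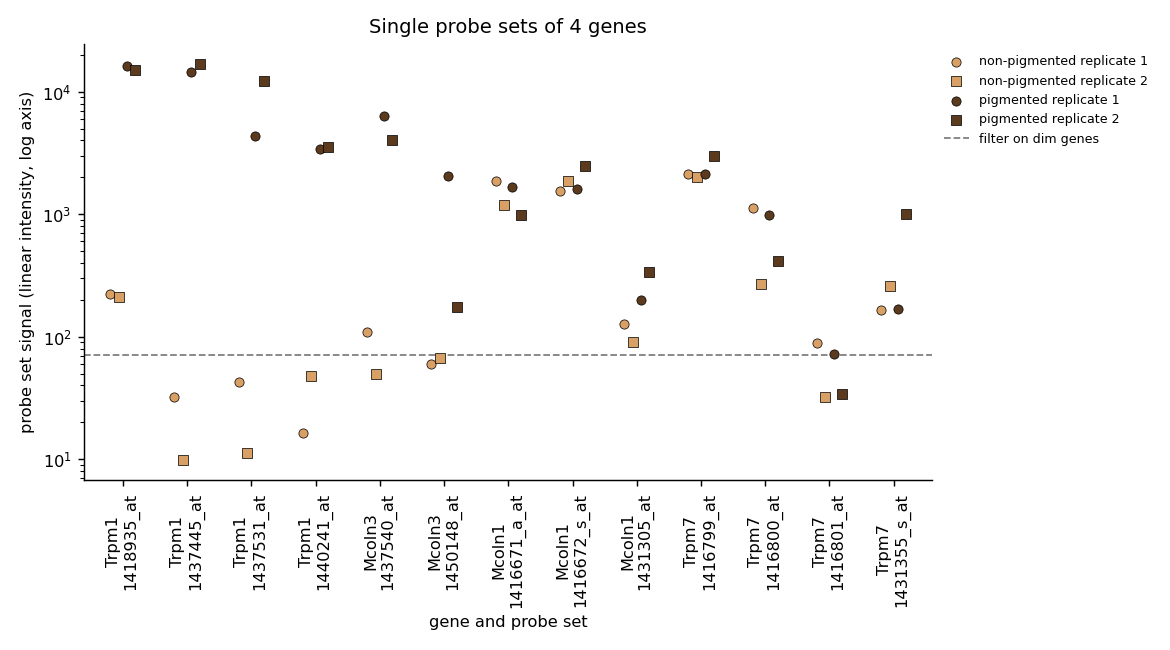
Signal (log axis, linear intensity) of every probe set of Trpm1, Mcoln3, Mcoln1 and Trpm7 on the 4 arrays, with the filter value of 70.7 as a dashed line. All 4 Trpm1 probe sets and both Mcoln3 probe sets were higher in the pigmented line, while the lines overlapped in most probe sets of Mcoln1 and Trpm7.

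Of the other mucolipins 1 was dim and 1 was tested and not called. Mcoln2 is the next protein-coding gene to Mcoln3 on the mouse assembly GRCm38.p6, and it was dim, with signals of 51.6 and 44.7 in the non-pigmented and 23.9 and 47.3 in the pigmented arrays. Mcoln1 encodes the main lysosomal calcium release channel, whose loss in people causes mucolipidosis type IV. Its chosen probe set had signals of 1558 and 1875 in the non-pigmented and 1606 and 2497 in the pigmented line, so that the lines overlapped. The difference was 0.23 ± 0.44 (SE), with a 95% interval from -0.83 to 1.28 and an adjusted p of 0.881 by limma. Its 3 probe sets differed in direction, at -0.23, 0.23 and 1.15.

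Trpv2, a calcium-permeable channel of the vanilloid group, was read by 1 probe set. The signals were 345 and 856 without pigment against 1716 and 3886 with pigment. The lines did not overlap, but within each line replicate 2 was more than 1 log2 unit above replicate 1, by 1.27 in the non-pigmented and 1.17 in the pigmented line. The difference was 2.21 ± 0.63 (SE), or 4.63-fold, and limma gave an adjusted p of 0.170. Within the dates of the titles it was 3.43 and 0.99, and within the pairs of arrays of like RNA integrity it was 2.26 and 2.16. With this pair as a block in the fit, Trpv2 was called (adjusted p of 0.0159 by limma), as were 7.04% of all genes. With the date in the titles as a block Trpv2 was not called (adjusted p of 0.265 by limma). With single arrays left out, its difference ran from 1.58 without non-pigmented replicate 1 to 2.85 without non-pigmented replicate 2. Such a fit leaves 1 array in a line, so its p-value measures no spread within that line and is not given.

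Among the other melastatins, Trpm7 encodes a channel fused to a kinase that takes up magnesium and is needed for pigment cells in zebrafish. Its chosen probe set had signals of 2116 and 2007 in the non-pigmented and 2117 and 2994 in the pigmented arrays. Only pigmented replicate 2 stood apart. The difference was 0.29 ± 0.41 (SE), with a 95% interval from -0.70 to 1.27. Trpm4, a channel for monovalent cations that calcium opens, had 302 and 398 against 348 and 807, a difference of 0.59 ± 0.53 (SE). The magnesium channel gene Trpm6 had 137 and 157 against 205 and 204, with no overlap, and a difference of 0.44 ± 0.41 (SE). The other Trpm6 probe set had 102 and 52.5 against 129 and 37.3, with overlap and a difference of -0.03. Trpm2, a channel gated by ADP-ribose, had 213 and 183 against 194 and 203, and a difference of 0.01 ± 0.41 (SE). The other Trpm2 probe set had 57.6 and 158 against 181 and 223, with no overlap and a difference of 0.94, and the mean of both gave 0.47. None of these 4 passed, at adjusted p-values from 0.730 to 0.997 by limma.

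Of the canonical channels, only Trpc1 and Trpc2 were bright enough to be tested. Trpc2 is known as the channel of the mouse vomeronasal organ. Signals of Trpc2 were 199 and 151 in the non-pigmented and 212 and 533 in the pigmented arrays, and the difference of 0.90 ± 0.55 (SE) had an adjusted p of 0.566 by limma. Probe set 1430485_at of the same gene had 247 and 119 against 198 and 476, with overlap and a difference of 0.78. A further 2 probe sets carry Trpc2 beside another gene symbol and were not used. Trpc1, a subunit of channels that open after receptor activation, had 89.7 and 147 in the non-pigmented line but 23.2 and 347 in the pigmented one. Its pigmented arrays enclosed the non-pigmented ones, and the 95% interval of its difference of -0.14 ran from -2.61 to 2.34. Trpc4ap, the partner protein gene, had 1518 and 508 against 1572 and 550, a difference of 0.08 ± 0.73 (SE).

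Pkd1 encodes polycystin 1, the large receptor-like partner of the channel made by Pkd2, and is the gene most often mutated in polycystic kidney disease. Its signals were 1029 and 1870 in the non-pigmented and 779 and 1281 in the pigmented line, with overlap, and the difference was -0.47 ± 0.51 (SE). Trpa1, a sensor of irritants, had signals from 49.1 to 106 and a difference of -0.38. Trpv6, a channel for calcium uptake in epithelia, had signals from 97.1 to 152 in the pigmented line and of 96.1 and 98.6 in the other, a difference of 0.28. Their mean log2 values were 6.49 for Trpa1 and 6.96 for Trpv6, little above the filter at 6.44.

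The 10 dim genes were Mcoln2, Trpc4, Trpc5, Trpc6, Trpc7, Trpm3, Trpm5, Trpm8, Trpv1 and Trpv4. Their chosen probe sets had signals between 2.01 and 180, and none had a mean above the filter. Trpm3, the host of Mir204, was read by 6 probe sets that were all dim. Trpc4 had 24.1 and 41.7 without pigment, and 180 in pigmented replicate 1 against 54.3 in pigmented replicate 2. Trpc6 was at 38.5 and 13.1 in the non-pigmented and 2.01 and 2.14 in the pigmented arrays. Trpv1 and Trpm8, the heat and cold sensors of sensory neurons, had signals of 51.1 to 99.6 and of 5.01 to 15.7. Without the filter, limma called none of the 10, and 1 of them, Trpc6, had an unadjusted p under 0.05 (0.0425, adjusted 0.404). The data cannot separate these signals from background, so they neither show nor deny expression.

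**Figure D4:**
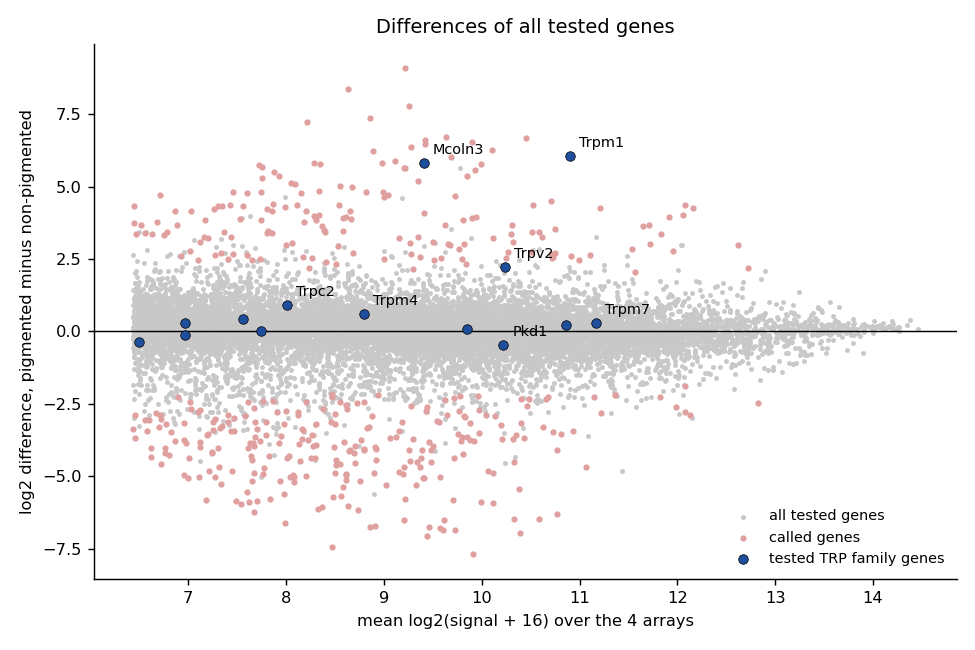
Log2 difference between the lines against the mean log2 value for all 12558 tested genes (grey), with called genes in pink and the 14 tested TRP family genes in blue. Trpm1 and Mcoln3 lie among the called genes that were higher in the pigmented line, Trpv2 at 2.21 was not called, and the other 11 lie between -0.47 and 0.90.

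The arrays differ in ways that touch these genes. The ratio of 3′ to 5′ signal of the Gapdh control was 0.864 to 0.903 in replicate 1 of either line and 16.8 to 20.2 in replicate 2, so replicate 2 of each line had lost 5′ signal. The date in the titles pairs the arrays the other way, replicate 1 of one line with replicate 2 of the other. Across genes, deviations from the line means of arrays with the same date correlated at -0.51, and those of arrays of like integrity at 0.51, which with 2 arrays per line is the same value with its sign turned. Because the 2 pairings are opposite, this value cannot tell the parts of date and integrity apart, and neither part was tested. Of the 10 melanocyte markers 7 were called higher in the pigmented line, against 1.33% of all tested genes. The summed signal of the 10 was 15523 to 26724 in the non-pigmented and 124160 to 131433 in the pigmented arrays. Sox10, on the same list, was not called by limma and had 8268 to 10232 in all 4 arrays. It gave 8268 of the sum of 15523 in non-pigmented replicate 1 and 8558 of 26724 in non-pigmented replicate 2. On the non-pigmented arrays Kit and Ednrb had signals of 62.4 to 72.1 and of 12.0 to 16.3, near or under the filter value, while Tyrp1 had 1426 and 9313. Kit and Ednrb passed the filter only through the pigmented line, so their calls are no further support. Tyrp1 and Slc45a2 were not called either, at differences of 2.11 and 2.99 and adjusted p-values of 0.332 and 0.0522 by limma.

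Markers of other cell types were followed beside these results. Of 7 Schwann cell and progenitor markers measured, 6 were tested and 4 were called lower in the pigmented line, with summed signals of 22247 to 26895 in the non-pigmented and 2275 to 3334 in the pigmented arrays. The 4 called were Mbp (-5.83), S100b (-5.45), Nes (-5.17) and Sox2 (-3.75), high where Trpm1 and Mcoln3 were low. Over all tested genes 2.03% were called lower. Nes and Sox2 had means of 6.17 and 5.08 in the pigmented line, under the filter at 6.44. They passed it only through the non-pigmented line, so their calls are no further support. Gfap had a difference of -2.42 and was not called, Cdh19 overlapped between the lines at 2274 and 5120 against 1867 and 2743, and Ngfr was dim. The part of these markers in the result was not tested. In bulk RNA fewer cells of a type and less RNA per cell cannot be told apart. The summed signal of 5 mast cell markers was 154 to 377 and all were dim, and that of 3 sensory neuron markers was 84.5 to 282 with 1 of them tested. The 6 keratinocyte markers summed to 453 to 872, and the 7 fibroblast markers to 813 to 1614. Of the keratinocyte markers Krt10 was called lower (-3.02), and Pkp1 was not (-2.51, adjusted p of 0.0601 by limma). Both passed the filter only through the non-pigmented line. Krt5 and Dsp had differences of 0.96 and 0.63 and were not called. None of the 4 fibroblast markers tested was called by limma, and 1 of them, Col1a2, had an unadjusted p under 0.05 (0.00327). Col1a2 was higher in the pigmented line, at 200 and 348 against 1222 and 1176, a difference of 2.11. The other differences were -0.41 for Col1a1, -1.61 for Col3a1 and 0.12 for Lum.

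**Figure D5:**
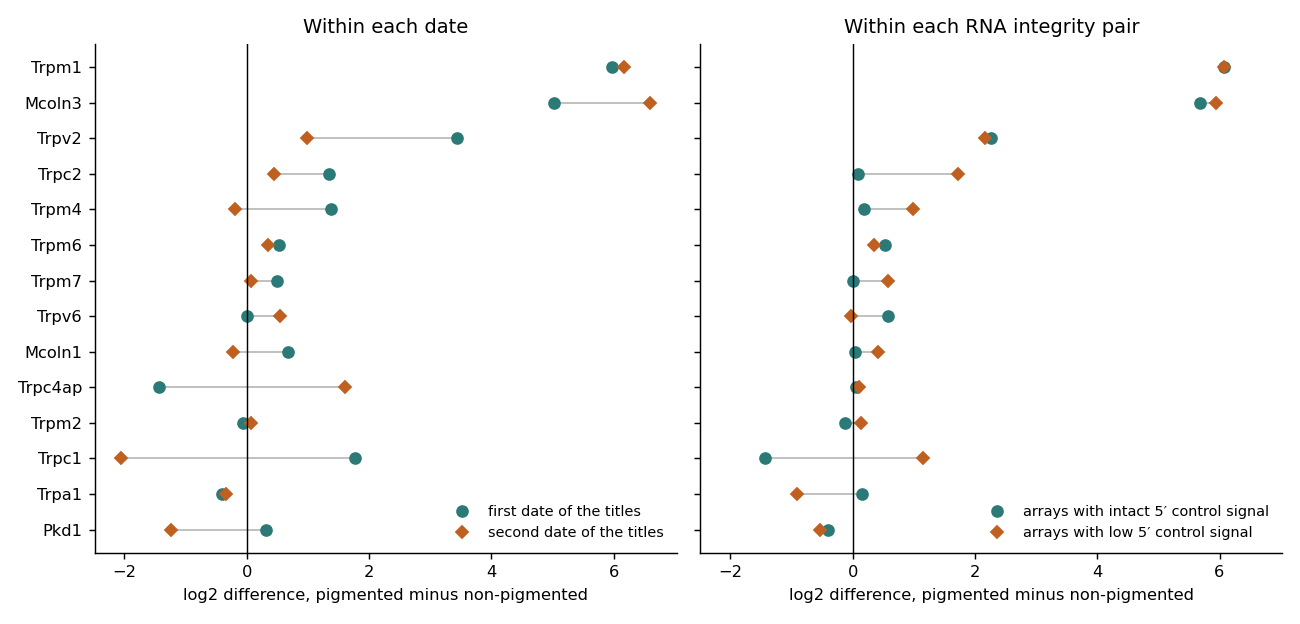
Difference between the lines for each of the 14 tested genes within the 2 dates of the titles (left) and within the 2 pairs of arrays of like RNA integrity (right), 1 array against 1 in each case. Trpm1 lies at 5.98 and 6.17 by date and at 6.07 and 6.08 by integrity pair, while Trpc1 and Trpc4ap are among the genes that change sign with the date.

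Taken within dates, Trpm1 differed by 5.98 and 6.17 and Mcoln3 by 5.03 and 6.60. Within integrity pairs Trpm1 differed by 6.07 and 6.08 and Mcoln3 by 5.68 and 5.95. Of the 14 genes, 8 kept their direction across the dates and 10 across the integrity pairs. No share over all tested genes stands beside these counts, so they are a description and no trait of the family. Trpc4ap was lower in replicate 2 than in replicate 1 in both lines, with log2 differences of -1.55 and -1.49. Probe set 1416800_at of Trpm7 had the same order, 1121 and 267 in the non-pigmented and 976 and 412 in the pigmented line, whereas probe set 1431355_s_at of the same gene had 165 and 261 against 169 and 1012. Of 7 genes with several probe sets above the filter, 5 had all of them in 1 direction, and Mcoln1 and Trpm6 had both directions.

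Genes that act with TRP channels were followed in 4 lists, of which 44 genes could be tested and 4 were called, 2 higher and 2 lower. Calls over all genes stood at 3.36%. Mitf was called in every alternative fitted per gene that kept all 4 arrays. Itpr3, Plcb4 and Tfeb were not called without non-pigmented replicate 2, at differences of -3.27, -2.39 and 2.98. Nor was Tfeb called without non-pigmented replicate 1 (a difference of 2.39). Those fits leave 1 non-pigmented array. With the date as a block Tfeb was not called either (adjusted p of 0.0771 by limma). Plcb4 was also lost with no filter (0.0662) and with a pseudocount of 1 (0.0522). With the mean of its 5 probe sets it fell under the filter and was not tested. Since the lists were drawn up with earlier results known, their counts are a description.

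Canonical TRP channels open after phospholipase C has cleaved membrane lipid and calcium has left the store of the endoplasmic reticulum. Of 14 tested genes of that route, 2 fell with pigment and 12 did not pass, with a median difference of -0.40, against 0.07 over all genes. Itpr3, a receptor that releases stored calcium, had signals of 2442 and 3524 in the non-pigmented and 351 and 162 in the pigmented line, and fell by 3.53 ± 0.52 (SE), with an adjusted p of 0.0235 by limma. Plcb4, a phospholipase C, had 1327 and 3542 against 224 and 256, and fell by 3.09 ± 0.57 (SE), with an adjusted p of 0.0457. The lines did not overlap in either gene. Plcb1 and the store sensor gene Stim2 came next, with differences of -1.35 and -1.38 and adjusted p-values of 0.205 and 0.299 by limma. Itpr2, of the same receptor family as Itpr3, had a difference of -0.40, and the channel gene Orai1 one of -1.20, and neither passed.

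Mucolipins are opened by a phosphoinositide that the Pikfyve complex makes on endosomes and lysosomes. Of 16 tested genes of this group 2 rose and 14 did not pass, with a median of -0.06. The 2 were the transcription factor genes Mitf and Tfeb, which are related to each other; Tfeb controls lysosomal genes and is activated downstream of Mcoln1. Mitf had signals of 796 and 1576 against 13405 and 10158, a difference of 3.36 ± 0.46 (SE) with an adjusted p of 0.0182 by limma. Tfeb had 521 and 794 against 3887 and 4610, a difference of 2.69 ± 0.43 (SE) with an adjusted p of 0.0304. Both pigmented arrays were high in either gene, and the lines did not overlap. Mitf also stands in the melanocyte marker list. The 3 genes of the Pikfyve complex, Pikfyve, Fig4 and Vac14, had positive differences of 0.85, 0.66 and 1.24, at adjusted p-values of 0.484 to 0.573 by limma, and did not pass. The lines overlapped in Vac14, at 432 and 130 against 818 and 422, but not in Pikfyve or Fig4. The calcineurin gene Ppp3ca had -1.18 (adjusted p of 0.263). Tpcn1 and Tpcn2, the other cation channels of lysosomes, had differences of -0.63 and -0.59.

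Of 9 tested relatives of the polycystins and genes of the primary cilium, where polycystins act, none was called by limma, and 0 had an unadjusted p under 0.05. The smallest p-values were those of Tulp3 (-0.78), Pkd1l2 (0.82) and Kif3a (0.85), all at adjusted p-values of 0.461 to 0.526. The median of the group was 0.27.

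In the retina TRPM1 is closed by a cascade of a glutamate receptor, its G protein and regulators. Of 8 measured genes of that cascade 5 were tested, and limma called none, and 0 had an unadjusted p under 0.05. Gnb5 had a difference of 0.98 and Rgs11 one of -1.18, at adjusted p-values of 0.392 and 0.372. Gnao1 had -0.64, Gnb3 0.71 and Nyx, a surface protein that anchors TRPM1, 0.26. Gpr179 was dim, with signals of 6.54 to 23.5. Rgs7 was dim on average too, but had signals of 12.0 and 15.4 in the non-pigmented and 116 and 371 in the pigmented arrays. Grm6 and Lrit3 were not analysed here.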

How the data were processed

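Total RNA of 4 samples labelled as melanocytes was hybridised to Affymetrix mouse arrays. The deposited intensity values are linear and were made by the authors with Affymetrix Expression Console, per the submitters' processing notes; version and summary algorithm are not given in the sources used here. The mean after trimming 2% at either end is 500 in each column, so the columns had been scaled. The number of arrays limits the precision.

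Control probe sets (64 of 45101) were left out, probe sets with 1 symbol were kept (34945), and the brightest represented each of 18193 genes. Genes under the 40th percentile (log2 6.44) were left out, leaving 12558. Tests used limma 3.58.1 in R 4.3.3 on log2(signal + 16), with an intensity trend and Benjamini-Hochberg adjustment over all tested genes; the code was tested on simulated data. Figures used matplotlib 3.10.9 in Python 3.11.15.

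The members, lists and tests were chosen with earlier results of these data known. The naming rule gave full values for members called, with an unadjusted p under 0.05 or a difference of at least 1, and for the brightest of each group, and named called genes and up to 4 with the smallest p of each list; others were named after their values were seen. Alternatives were other scalings, filters, pseudocounts, probe set rules, variance settings, blocks and leaving out each array.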

Additional observations from a re-analysis of the deposited data

How the results depend on the processing

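With 1 value per gene, Trpm1 and Mcoln3 were called higher under every alternative that kept all 4 arrays. Their differences were 5.81 to 7.17 and 4.40 to 6.27 over all alternatives, those without single arrays included. No tested gene of the family was called lower under any of them. Trpv2 passed as well when the integrity pair was blocked. Testing each probe set gave 5 calls in the family (4 of Trpm1 and 1 of the 2 of Mcoln3) and a median of 0.59 over 25 probe sets, in which genes with several probe sets count more than once. Calls over all genes rose from 422 to 884 when the integrity pair was blocked and were 392 with the date as a block. They ranged from 234 (without non-pigmented replicate 2) to 772 (without pigmented replicate 1) when single arrays were left out. The 4 calls in the pathway lists became 3 with no filter, the mean of probe sets, each probe set tested, a pseudocount of 1 or the date as a block. Not all of them held when single arrays were left out.

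Differences near 0 changed sign without passing the test. Centring on the median took the median difference of all genes from 0.07 to -0.20 and turned Mcoln1 to -0.049, Trpc4ap to -0.19 and Trpm2 to -0.25; quantile normalization turned Trpm2 to -0.20, and a pseudocount of 64 turned Trpc1 to 0.072. Leaving out single arrays gave ranges of -0.090 to 0.54 for Mcoln1, -1.74 to 1.47 for Trpc1, -0.69 to 0.86 for Trpc4ap, -0.097 to 0.11 for Trpm2 and -0.0033 to 0.56 for Trpv6. Others kept their sign but moved, Trpm4 from 0.0040 to 1.18, Trpm7 from 0.039 to 0.54, Trpc2 from 0.27 to 1.54, Pkd1 from -0.89 to -0.042 and Trpa1 from -0.66 to -0.098. The cause was not tested. The signal over background could not be read from the files used here, which limits what can be said of the 10 dim genes.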
